A study of Mus musculus with 20 samples.

Results

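The transcripts followed here are those of 10 immediate early transcription factors: the AP-1 genes Fos, Fosb, Fosl2, Jun, Junb and Jund, the related gene Atf3, and the zinc-finger genes Egr1, Egr2 and Egr3. They were chosen by symbol, and all 10 were found among the 52636 genes of the total RNA table and again in the ribosome-bound RNA table. Values came from macrophages grown from the livers of mouse embryos (E14.4, or E14.5 in the series' design text) in L-cell conditioned medium. Cells of 5 animals were held for 18 h in hypoxia (1% O2) or in normoxia (20% O2). Each lysate was divided into RNA pulled down with the tagged ribosomes, called TRAP after translating ribosome affinity purification, and total RNA (input), so each animal gave 4 poly(A) libraries and the series holds 20. The 3 animals labelled as conditional knockouts of HuR, the RNA-binding protein encoded by Elavl1, carried Csf1r-iCre with HuR fl/fl, and their numbers give the names KO-84, KO-94 and KO-179. Controls, of which there were 2, carried Csf1r-iCre with HuR +/+ and are called WT-280 and WT-281. All 5 expressed ribosomal protein L10a fused to EGFP. Csf1r-iCre places the recombinase under the promoter of the macrophage growth factor receptor gene, so the deletion is directed at the macrophage lineage and not at every cell of a liver culture.

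AP-1 is a dimer of basic leucine zipper proteins. A Jun protein pairs with itself, with a Fos protein or with an ATF protein, and Fos proteins bind DNA only as part of such a pair. EGR proteins bind GC-rich sites through zinc fingers and recruit the corepressors Nab1 and Nab2. Both groups are immediate early genes: their promoters are loaded before a stimulus arrives, their mRNAs appear within minutes of growth factor, stress or pathogen signals through MAP kinases, SRF and CREB, and the mRNAs of several carry AU-rich elements that shorten their life. In macrophages Egr1 and Egr2 also take part in differentiation under CSF1, and ATF3 restrains inflammatory genes.

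Values are TPM, a scale of transcript shares that divides by transcript length and sums to 1000000 in every library, so a value is a share of the library's RNA. Fewer cells of a type and less RNA per cell cannot be told apart on this scale. The sequencing depth is unknown, and precision rests on the spread between libraries.

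The sequences just upstream of 3 of the 6 members that lay lower in hypoxia input in every animal are shown, with short stretches of 2 other members. The reason is that immediate early genes are known for sites of CREB/ATF proteins and SRF close to their starts. They come from RefSeq's promoter windows on GRCm38.p6, which held 8 of the 10 members (12 windows, because some genes have several starts). Egr1 and Egr3 had no entry. Each line gives the bases 5′ to 3′ on the gene's strand up to the base before the start, and capitals mark TGACG, the core of the cAMP response element, on either strand (CGTCA where it lies on the other).
Fos, chr12:85473640-85473889 (+): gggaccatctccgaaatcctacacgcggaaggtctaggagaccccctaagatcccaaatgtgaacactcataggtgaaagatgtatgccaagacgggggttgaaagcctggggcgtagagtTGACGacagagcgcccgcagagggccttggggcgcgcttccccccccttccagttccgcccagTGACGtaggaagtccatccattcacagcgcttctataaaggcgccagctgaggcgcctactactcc
Junb, chr8:84978749-84978998 (-): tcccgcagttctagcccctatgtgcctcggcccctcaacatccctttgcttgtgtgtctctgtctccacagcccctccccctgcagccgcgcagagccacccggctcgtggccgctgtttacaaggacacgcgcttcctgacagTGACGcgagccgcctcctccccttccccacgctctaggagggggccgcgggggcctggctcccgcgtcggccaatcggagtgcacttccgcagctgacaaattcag
Atf3, chr1:191183334-191183583 (-): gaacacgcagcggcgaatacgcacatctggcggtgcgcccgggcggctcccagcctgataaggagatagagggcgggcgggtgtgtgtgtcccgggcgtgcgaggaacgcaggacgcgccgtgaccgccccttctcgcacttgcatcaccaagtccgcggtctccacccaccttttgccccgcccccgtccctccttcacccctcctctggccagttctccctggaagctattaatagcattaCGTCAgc
Fosb, chr7:19310091-19310115 (-): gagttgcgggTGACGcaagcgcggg

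In Fos the core begins 129 and 66 bases before the start, in Junb 106 bases, in Atf3 7 bases and in Fosb 60 bases before the start of the transcript used. The Fosb stretch lies inside the Fosb locus, which ends at 19310118. TGACG, counted on both strands, was found in 7 of the members' 12 windows (Fos, Fosb, Junb, Atf3 and Egr2) and in 17.8% of 32851 windows of the same length. It was not found in Fosl2 and Jund, which were also lower in hypoxia input in every animal. Egr2, which holds it, was lower in 3 of 5 animals. The full element TGACGTCA, which contains that core, was found in none of the members' windows and in 1.55% of all. The AP-1 site TGAGTCA (4.46% of all windows) and the EGR site GCGTGGGCG (0.536%) were not found in a member's window either. ACGTG, the core of the hypoxia response element, was found in Egr2 and Jund and in 16.6% of all windows. The SRF site known as the CArG box (1.47% of all windows) was found among the members in Egr2 alone, in 4 windows. It is in capitals here, 72 bases before each of a pair of starts, and repeats of the same stretch were left out. Both stretches lie inside the Egr2 locus, which begins at 67534469.
Egr2, first start, chr10:67537484-67537513 (+): cggatcttctCCTTTTTTGGaaagtctcgg
Egr2, second start, chr10:67537787-67537816 (+): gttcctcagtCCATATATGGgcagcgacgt
These matches describe letters in a window of 250 bases. They do not cover sites farther upstream and say nothing of binding in these cells.

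Elavl1, the targeted gene, measured 40.1, 154 and 43.0 TPM in KO normoxia input against 47.3 and 25.9 TPM in WT normoxia input. Its ranges also overlapped in hypoxia input (1.69 to 29.2 TPM in KO, 2.07 and 20.8 TPM in WT) and in both TRAP conditions. A gene-level value spans all exons and may not read the deleted part, so the animals are called knockout-labelled and every direction between genotypes rests on the labels. The 10 macrophage markers summed to between 6342 and 14684 TPM in input. The 10 fibroblast markers summed to between 84.4 and 293 TPM in KO input against 353 to 575 TPM in WT input, so they moved with genotype. The 6 neutrophil markers summed to between 0 and 19.2 TPM in TRAP and between 0 and 29.9 TPM in input, with Camp, Elane, Ly6g and Mpo at 0 in every library. In hypoxia input they summed to 1.84 to 16.8 TPM in KO against 21.3 to 29.9 TPM in WT, and the 6 erythroid markers summed to at most 5.08 TPM. The 4 megakaryocyte markers summed in hypoxia input to 16.5 to 46.8 TPM in KO against 49.3 to 68.8 TPM in WT. In normoxia input the megakaryocyte markers overlapped (8.78 to 59.2 TPM in KO, 32.5 to 46.3 TPM in WT). The WT-280 hypoxia input library stood apart among input libraries, with mitochondrially encoded mRNA at 1.26% and 10364 genes at 1 TPM or more, the lowest of each. KO-84 normoxia input had the highest mitochondrial share (4.75%).

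Fos was the most abundant member in both fractions, and Fosb and Egr3 were close to the lower limit of the data. Fos ranged from 221 to 1029.5 TPM in the 10 input libraries, with a median of 470.4 TPM, and was above Atf3 in all 10. Atf3 (median 212 TPM), Jund (115 to 369 TPM) and Junb (median 143 TPM) followed, and each was above its successor in 8, 9 and 10 of the 10 libraries. Egr1 (58.0 TPM) and Jun (55.1 TPM) were not separated, with Egr1 above Jun in 6 of 10 libraries. Egr2 (10.4 TPM) and Fosl2 (6.66 TPM) came next, also in an unsteady order, with Egr2 above in 7 of 10. Fosb (0.299 TPM) and Egr3 (0.268 TPM) were each listed at 0 in 3 input libraries, and their order was even.

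In TRAP the order was similar. Fos (median 757 TPM) was above Jund (228 TPM) in 10 of 10 libraries, while Jund was above Atf3 (192 TPM) in 4 of 10, so these neighbours were not separated. Jun (56.0 TPM), Egr1 (50.1 TPM), Fosl2 (6.02 TPM) and Egr2 (5.54 TPM) held the middle of the order. Fosb (0.421 TPM) and Egr3 (0.394 TPM) were again at its foot. Egr1 was the steadiest member, with a highest input value 1.74 times the lowest, and Egr2 the least steady among members detected in every library, with a ratio of 118. That ratio rested on the WT-280 hypoxia input library (0.404 TPM) and was 13.2 without it, still above those of the other members detected in every input library.

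Within this order, KO-94 stood apart from the other animals. Its input libraries held the highest values of Atf3, Fos, Jun, Junb, Jund and Egr2 within each oxygen condition. The 10 members together made up 0.247% of all transcripts in hypoxia and 0.279% in normoxia in KO-94 input, against 0.0661% to 0.107% in hypoxia and 0.0992% to 0.163% in normoxia in input of the other 4 animals.

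**Figure D1:**
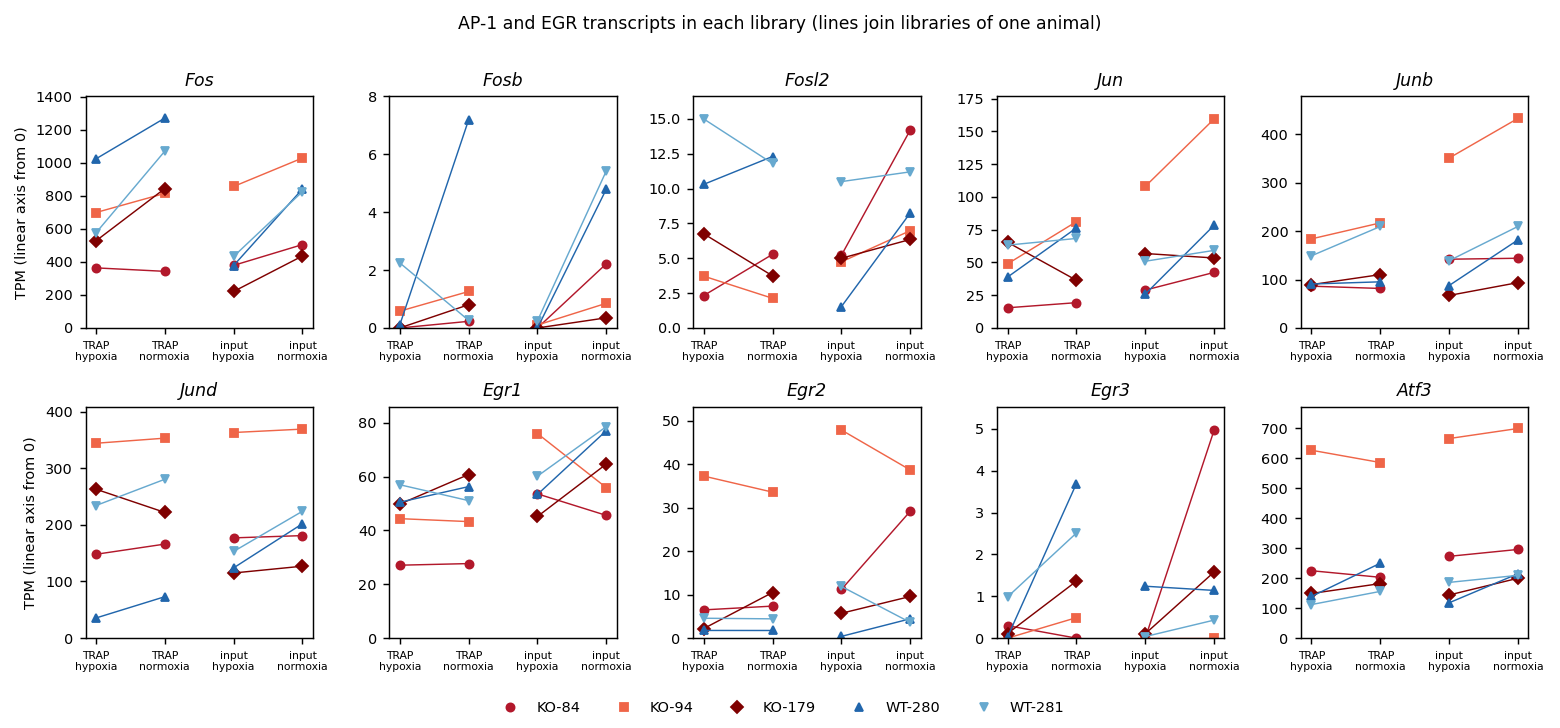
TPM of each member (linear axes from 0) in hypoxia and normoxia, in TRAP and in input, with lines joining the libraries of an animal. Fos reached 1029.5 TPM in input of KO-94, and Fosb and Egr3 did not pass 7.19 and 4.97 TPM in any library.

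The first comparison asks whether 18 h of hypoxia altered these transcripts in total RNA. All 10 members averaged lower in hypoxia than in normoxia, as 63.0% of all genes tested did. Of the members, 6 (Fos, Fosb, Fosl2, Junb, Jund and Atf3) were lower in 5 of 5 animals, a pattern that 7.02% of the 13901 genes tested also had. The median log2 difference of the members was -0.52, against -0.13 over all genes tested. No member passed the test. With limma and Benjamini-Hochberg adjustment over all genes, 0 of 13901 genes (0%) had an adjusted p under 0.05 and 244 had an unadjusted p under 0.05. This fit did not pair the libraries of an animal, so the SEs below include the spread between animals. The macrophage markers summed higher in hypoxia input than in normoxia input in 5 of 5 animals, from 9374 against 6342 TPM in KO-84 to 13449 against 12586 TPM in KO-94. Mitochondrially encoded mRNA was lower in hypoxia input in 5 of 5 animals, from 2.61% against 4.75% in KO-84 to 2.10% against 2.27% in KO-94. The part of either in the members' differences was not tested.

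Fos, the defining partner of Jun in AP-1, measured 379, 857 and 221 TPM in hypoxia input of KO-84, KO-94 and KO-179 and 378 and 433 TPM in that of WT-280 and WT-281, against 505, 1029.5 and 436 TPM in normoxia input of the same KO animals and 842 and 826 TPM in that of the WT animals. Each animal was lower in hypoxia, and the groups overlapped only through KO-94, whose hypoxia value lay above both WT normoxia values. The log2 difference was -0.75 ± 0.38 (SE, limma adjusted p = 1.000). By animal it was -0.41 in KO-84, -0.26 in KO-94, -0.97 in KO-179, -1.15 in WT-280 and -0.93 in WT-281.

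Fosb, a Fos paralogue known for its induction by repeated stimulation, was listed at 0, 0.102 and 0 TPM in hypoxia input of KO-84, KO-94 and KO-179 and at 0 and 0.247 TPM in that of WT-280 and WT-281. In normoxia input it measured 2.22, 0.853 and 0.351 TPM in the KO animals and 4.80 and 5.43 TPM in the WT animals. Every hypoxia library lay below every normoxia library, which held for 0.266% of genes tested, and Fosb was the only such member. It reached 1 TPM in 0 of the 5 hypoxia libraries and passed the filter on low values only through normoxia libraries, so some difference was built into its inclusion. Its log2(TPM + 1) difference of -1.55 ± 0.35 (SE) had the smallest p of the members before adjustment (limma adjusted p = 1.000). The scale understates ratios at such low levels.

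Fosl2, which encodes the Fos-related protein Fra-2, measured 5.21, 4.74 and 5.00 TPM in hypoxia input of KO-84, KO-94 and KO-179 and 1.53 and 10.5 TPM in that of WT-280 and WT-281, against 14.2, 6.98 and 6.35 TPM and 8.25 and 11.2 TPM in normoxia input of the same animals. The KO hypoxia values were nearly alike, and the lowest value of all was the WT-280 hypoxia library. The log2 difference was -0.80 ± 0.49 (SE, adjusted p = 1.000), with a range over animals of -1.87 in WT-280 to -0.09 in WT-281.

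Among the Jun proteins, which supply the DNA-binding partner of every AP-1 dimer, the differences were smaller. Jun measured 28.9, 108 and 56.8 TPM in hypoxia input of KO-84, KO-94 and KO-179 and 25.8 and 50.9 TPM in that of WT-280 and WT-281, against 42.4, 159.5 and 53.4 TPM and 78.4 and 59.2 TPM in normoxia input. It was lower in hypoxia in 4 of 5 animals, KO-179 being the exception, with a log2 difference of -0.56 ± 0.46 (SE, adjusted p = 1.000). Junb, a weaker activator that can oppose Jun, measured 142, 351 and 67.2 TPM in hypoxia of the KO animals and 87.7 and 139 TPM in hypoxia of the WT animals, against 144, 433 and 93.7 TPM and 182 and 209.8 TPM in normoxia. The difference was next to nothing in KO-84 (-0.02) and largest in WT-280 (-1.04), and it averaged -0.49 ± 0.49 (SE, adjusted p = 1.000). Jund, the Jun gene with the most constant expression in resting cells, measured 177, 363 and 115 TPM in hypoxia of the KO animals and 124 and 153 TPM in hypoxia of the WT animals, against 181, 369 and 127 TPM and 202 and 224 TPM in normoxia. In the KO animals the values in the pair of conditions were almost the same (log2 differences of -0.14 to -0.02), while WT-280 and WT-281 differed by -0.70 and -0.55. Over all animals Jund differed by -0.29 ± 0.38 (SE, adjusted p = 1.000).

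The EGR genes did not share a direction across animals. Egr1 measured 53.6, 76.0 and 45.2 TPM in hypoxia input of KO-84, KO-94 and KO-179 and 53.4 and 60.2 TPM in that of WT-280 and WT-281, against 45.6, 55.9 and 64.7 TPM and 77.1 and 78.6 TPM in normoxia input. It was higher in hypoxia in KO-84 and KO-94 and lower in the other 3 animals, a log2 difference of -0.15 ± 0.29 (SE, adjusted p = 1.000). Egr2 measured 11.2, 47.9 and 5.72 TPM in hypoxia of the KO animals and 0.404 and 11.9 TPM in hypoxia of the WT animals, against 29.2, 38.7 and 9.59 TPM and 4.45 and 3.62 TPM in normoxia. The WT animals moved in opposite directions, and the mean difference of -0.43 ± 0.70 (SE, adjusted p = 1.000) became 0.21 without the WT-280 hypoxia library. Egr3 was listed at 0, 0 and 0.105 TPM in hypoxia of the KO animals and at 1.24 and 0.0373 TPM in hypoxia of the WT animals, against 4.97, 0 and 1.58 TPM and 1.14 and 0.431 TPM in normoxia. Most of its difference of -0.84 ± 0.47 (SE, adjusted p = 1.000) came from KO-84 (-2.58) and KO-179 (-1.22).

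Atf3, which encodes an ATF protein that dimerises with Jun and is induced by many stresses, measured 273, 666 and 144 TPM in hypoxia input of KO-84, KO-94 and KO-179 and 118 and 186 TPM in that of WT-280 and WT-281, against 296, 699.6 and 199.9 TPM and 215 and 209.6 TPM in normoxia input. Each animal was lower in hypoxia, by -0.07 in KO-94 to -0.86 in WT-280, and the groups overlapped widely because animals differed more than conditions. The log2 difference was -0.34 ± 0.44 (SE, adjusted p = 1.000). After quantile normalization, which brings all libraries to 1 distribution (the median difference over all genes was -0.13), all 10 members still averaged lower in hypoxia, from -0.08 for Egr1 to -1.44 for Fosb. With the animal as a replicate block, the adjusted p of the members lay between 0.577 (Fos and Fosb) and 0.810 (Egr1).

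**Figure D2:**
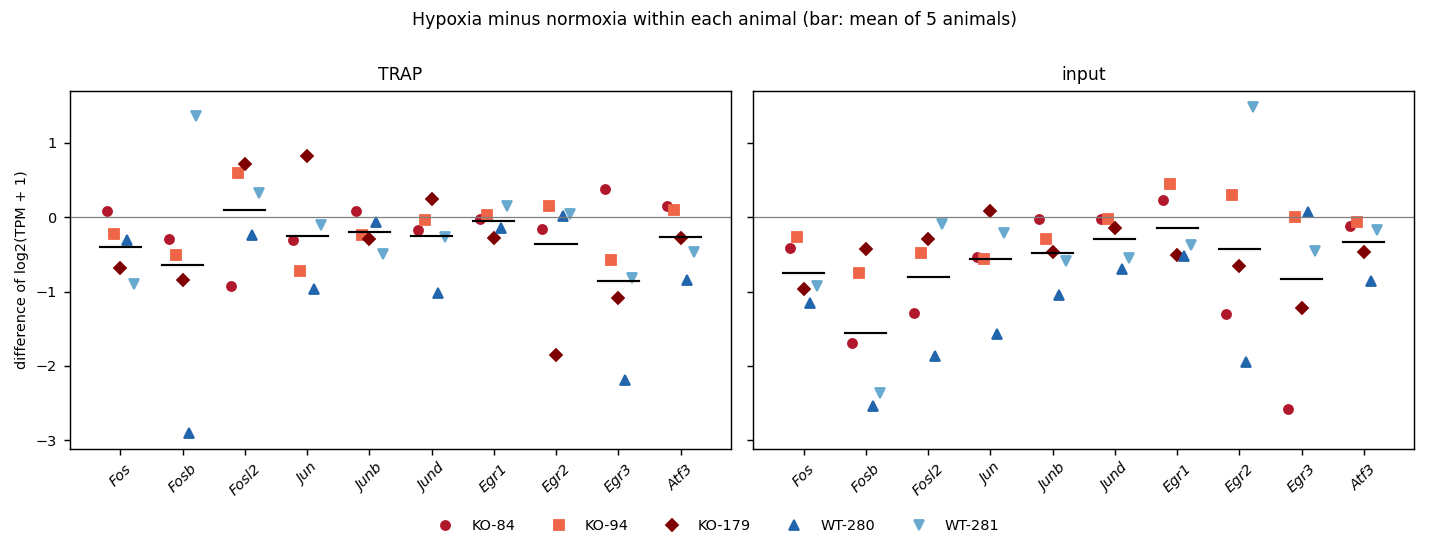
Difference of log2(TPM + 1), hypoxia minus normoxia, within each of the 5 animals for the 10 members in TRAP and in input, with bars at the mean. In input, 6 members lie below 0 in all 5 animals and Fosb has the lowest mean (-1.55), while in TRAP none lies below 0 in all 5.

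On ribosomes the same comparison gave no member that was lower in 5 of 5 animals (2.80% of 13522 genes tested were). No member had every hypoxia library below every normoxia library, as 0.0813% of genes did. Of the 10 members, 9 averaged lower in hypoxia TRAP and Fosl2 higher, where 48.3% of all genes averaged lower. The median of the members was -0.26, against 0.02 over all genes. None passed the test, nor did any of the 13522 genes (0%), of which 261 had an unadjusted limma p under 0.05.

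Fos measured 364, 699 and 527 TPM in hypoxia TRAP of KO-84, KO-94 and KO-179 and 1024 and 575 TPM in that of WT-280 and WT-281, against 343, 815 and 844 TPM and 1271 and 1070.4 TPM in normoxia TRAP. It was lower in hypoxia in 4 of 5 animals and the groups overlapped (log2 difference -0.40 ± 0.35, SE, adjusted p = 1.000). Egr3 was listed at 0.299, 0 and 0.110 TPM in hypoxia TRAP of the KO animals and 0.0278 and 0.984 TPM in that of the WT animals, against 0, 0.489 and 1.36 TPM and 3.69 and 2.51 TPM in normoxia TRAP. As with Fosb in input, it reached 1 TPM in none of the 5 hypoxia libraries and passed the filter only through normoxia, and its difference was -0.86 ± 0.40 (SE, limma adjusted p = 1.000).

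Fosb in TRAP measured 0, 0.580 and 0 TPM in hypoxia of the KO animals and 0.0996 and 2.25 TPM in hypoxia of the WT animals, against 0.229, 1.26 and 0.803 TPM and 7.19 and 0.263 TPM in normoxia. The WT animals went opposite ways, and the log2 difference was -0.64 ± 0.54 (SE, adjusted p = 1.000). Fosl2 measured 2.32, 3.72 and 6.76 TPM in hypoxia TRAP of the KO animals and 10.3 and 15.0 TPM in that of the WT animals, against 5.28, 2.13 and 3.74 TPM and 12.3 and 11.8 TPM in normoxia TRAP. Its difference of 0.10 ± 0.48 (SE, adjusted p = 1.000) had no steady direction, being -0.03 without KO-94 and -0.06 without KO-179.

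The other members in TRAP differed by less than their spread. Jun differed by -0.25 ± 0.48, Junb by -0.20 ± 0.40 and Jund by -0.25 ± 0.53 (SE, adjusted p = 1.000 for each). Atf3 differed by -0.27 ± 0.44, Egr1 by -0.06 ± 0.36 and Egr2 by -0.36 ± 0.69 (SE, adjusted p = 1.000 for each). Without KO-179, Egr1 and Egr2 averaged 0.00 and 0.01. Whether the hypoxia difference itself differed between TRAP and input was tested in a joint fit of 14842 genes, in which 0% passed and 249 had an unadjusted p under 0.05. The smallest p-values among members were those of Fosb, with a difference of 0.92 ± 0.63 (SE, adjusted p = 1.000), and Fosl2, with 0.90 ± 0.64 (SE, adjusted p = 1.000). Of the members, 9 of 10 had the less negative or more positive value in TRAP and 1 of 10 the lower, where 38.8% of all genes had the lower value in TRAP.

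Partners, upstream regulators, feedback genes and targets of these factors were followed through lists, and no gene of any list passed the test for hypoxia in input or in TRAP. The counts below stand beside 63.0% of all genes that averaged lower in hypoxia input and 48.3% in hypoxia TRAP. Of 12 AP-1 partners (Fosl1, the Batf, Jdp2 and ATF genes, and the Maf genes), 10 averaged lower and 2 higher in hypoxia input, with a median of -0.37. Mafk, a small Maf protein, had a log2 difference of -0.75 ± 0.48 and Batf3, a dendritic cell factor that pairs with Jun proteins, 1.04 ± 0.70 (SE, limma adjusted p = 1.000 for both). In TRAP the partners split 6 to 6, with Mafg at 1.25 ± 0.64 and Batf2 at 0.93 ± 0.52 (SE, adjusted p = 1.000 for both). The EGR corepressor genes Nab1 and Nab2 differed by -0.05 ± 0.44 and -0.13 ± 0.51 in input and by 0.32 ± 0.38 and 0.34 ± 0.55 in TRAP (SE, adjusted p = 1.000 for all), and Egr4 did not pass the filter.

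Of 17 upstream genes (SRF, its cofactors, CREB and MAP kinase genes), 11 averaged lower and 6 higher in hypoxia input (median -0.20) and 7 lower and 10 higher in TRAP (median 0.09). In input the smallest p-values were those of the SRF partner Elk3 (0.95 ± 0.58, SE) and the SRF coactivator Mrtfa (-0.67 ± 0.45, SE, adjusted p = 1.000 for both). In TRAP they were those of Crem, a CREB relative (1.02 ± 0.79, SE), and the kinase gene Rps6ka3 (0.42 ± 0.49, SE, adjusted p = 1.000 for both).

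Feedback genes shorten immediate early signals or mRNAs. Of 13, 12 averaged lower and 1 higher in hypoxia input, with a median of -0.29 against -0.13 over all genes. Dusp5, a nuclear phosphatase that acts on ERK, measured 14.0, 33.9 and 5.39 TPM in hypoxia input of KO-84, KO-94 and KO-179 and 5.34 and 8.98 TPM in that of WT-280 and WT-281, against 18.8, 57.5 and 11.3 TPM and 49.0 and 25.5 TPM in normoxia input. It was lower in each animal, with a log2 difference of -1.29 ± 0.55 (SE, limma adjusted p = 1.000). Zfp36, which encodes the AU-rich element binding protein tristetraprolin, measured 167, 370.2 and 112 TPM in hypoxia input of the KO animals and 183 and 126 TPM in that of the WT animals, against 196, 498 and 173 TPM and 390.4 and 256 TPM in normoxia input. It too was lower in each animal (-0.68 ± 0.40, SE, adjusted p = 1.000). In TRAP, 8 of the 13 averaged lower and 5 higher (median -0.06), with Zfp36 at -0.52 ± 0.34 and Dusp5 at -0.67 ± 0.46 (SE, adjusted p = 1.000 for both).

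Of 13 tested genes reported as AP-1 or EGR targets, 7 averaged lower and 6 higher in hypoxia input, and 2 lower and 11 higher in TRAP. Lif did not pass the filter. In input, the cytokine gene Il1b differed by -1.24 ± 0.50 (SE, adjusted p = 1.000). Il1b was listed at 0 in 4 of the 5 hypoxia input libraries and did not exceed 4.76 TPM in any input library. It passed the filter only through normoxia libraries, as Fosb did. The heme oxygenase gene Hmox1 measured 10.2, 18.0 and 17.3 TPM in hypoxia input of KO-84, KO-94 and KO-179 and 2.46 and 19.1 TPM in that of WT-280 and WT-281, against 20.4, 30.6 and 36.0 TPM and 22.9 and 13.6 TPM in normoxia input, and did not pass either. It was lower in hypoxia in 4 of 5 animals, WT-281 being the exception. In TRAP, the gelatinase gene Mmp9 differed by 1.18 ± 0.61 and the hyaluronan receptor gene Cd44 by 0.53 ± 0.37 (SE, adjusted p = 1.000 for both).

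The second comparison asks how knockout-labelled and control macrophages differed. No member passed the test in any of the 4 combinations of oxygen and fraction, and no other gene did (0% in each). The numbers of genes with an unadjusted limma p under 0.05 were 704 for normoxia TRAP, 585 for hypoxia TRAP, 304 for normoxia input and 901 for hypoxia input. With 2 WT animals, single libraries decided several of the values below, and fibroblast markers moved with genotype as given above, whose part in these differences was not tested.

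In normoxia input, the KO values of Fosb (2.22, 0.853 and 0.351 TPM) and of Egr1 (45.6, 55.9 and 64.7 TPM) all lay below the WT values (4.80 and 5.43 TPM for Fosb, 77.1 and 78.6 TPM for Egr1), a pattern held by 5.75% of genes tested. Those of Egr2 (29.2, 38.7 and 9.59 TPM) all lay above the WT values (4.45 and 3.62 TPM), as 9.42% of genes did. So 3 of the 10 members did not overlap between genotypes there. The log2 difference was -1.61 ± 0.51 for Fosb and 2.22 ± 1.01 for Egr2 (SE, limma adjusted p = 1.00 for both). The other 8 members ranged from -0.50 (Egr1) to 0.70 (Atf3).

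In hypoxia input, no member was without overlap, while 4.48% of genes lay lower and 18.4% higher in every KO library, and the median of all genes was 0.36. Egr2 had the smallest p, with 11.2, 47.9 and 5.72 TPM in KO against 0.404 and 11.9 TPM in WT. Its log2 difference of 1.90 ± 1.01 (SE, adjusted p = 0.736) was 1.32 after quantile normalization, 0.30 without WT-280 and 3.50 without WT-281. Atf3 came next, with 1.00 ± 0.64 (SE, adjusted p = 0.736), and was 0.42 without KO-94. The other members ranged from -0.56 (Egr3) to 0.62 (Jun).

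On ribosomes, Fosl2 was low in the KO animals in both oxygen conditions. In normoxia TRAP it measured 5.28, 2.13 and 3.74 TPM in the 3 KO animals against 12.3 and 11.8 TPM in the WT animals. In hypoxia TRAP it measured 2.32, 3.72 and 6.76 TPM in KO against 10.3 and 15.0 TPM in WT. The groups did not overlap in either condition, as for 9.67% of genes in normoxia and 6.94% in hypoxia in this direction. Both conditions come from the same animals, so neither is an independent repeat of the other. The log2 difference was -1.52 ± 0.70 in normoxia (SE, limma adjusted p = 0.921) and -1.44 ± 0.70 in hypoxia (SE, adjusted p = 1.00). In input, the KO and WT values of Fosl2 overlapped in both conditions, with differences of -0.14 ± 0.71 in normoxia (SE, adjusted p = 1.00) and 0.15 ± 0.71 in hypoxia (SE, adjusted p = 0.966). The fibroblast markers lay in the same direction as Fosl2, summing to 11.8 to 53.7 TPM in KO against 80.2 to 118 TPM in WT normoxia TRAP, and to 4.64 to 92.2 TPM in KO against 79.0 to 156 TPM in WT hypoxia TRAP, where they overlapped. The neutrophil markers summed to 0 to 5.59 TPM in KO against 8.45 to 13.6 TPM in WT normoxia TRAP. In hypoxia TRAP they overlapped (0 to 18.0 TPM in KO, 7.53 to 19.2 TPM in WT). The 4 megakaryocyte markers did not overlap there, with 13.3 to 38.8 TPM in KO against 59.8 to 67.7 TPM in WT. In normoxia TRAP the megakaryocyte markers overlapped (10.3 to 59.8 TPM in KO, 30.9 to 47.6 TPM in WT). The part of these markers in the Fosl2 difference was not tested.

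In normoxia TRAP, Fos (343, 815 and 844 TPM in KO against 1271 and 1070.4 TPM in WT) and Egr3 (0, 0.489 and 1.36 TPM in KO against 3.69 and 2.51 TPM in WT) were, like Fosl2, lower in every KO library. Egr2 was higher in every KO library (7.37, 33.6 and 10.5 TPM in KO against 1.76 and 4.44 TPM in WT), as were 9.85% of genes. Egr3 had the smallest p of the members there (-1.42 ± 0.58, SE, limma adjusted p = 0.921). Beside Fosl2 and Egr3, the members ranged from -0.91 (Fos and Fosb) to 1.95 (Egr2).

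In hypoxia TRAP, Egr1 (27.1, 44.4 and 49.8 TPM in KO against 50.5 and 57.0 TPM in WT) was, with Fosl2, lower in every KO library. Atf3 (225, 627 and 149 TPM in KO against 139 and 112 TPM in WT) was higher in every KO library, as were 9.36% of genes. After Fosl2, the smallest p was that of Jund, with 148, 344 and 263 TPM in KO against 35.5 and 234 TPM in WT. Its log2 difference of 1.36 ± 0.76 (SE, adjusted p = 1.00) rested on the low WT-280 library, being 0.02 without WT-280 and 2.71 without WT-281. Beside Fosl2 and Jund, the members ranged from -0.70 (Fosb) to 1.30 (Egr2).

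**Figure D3:**
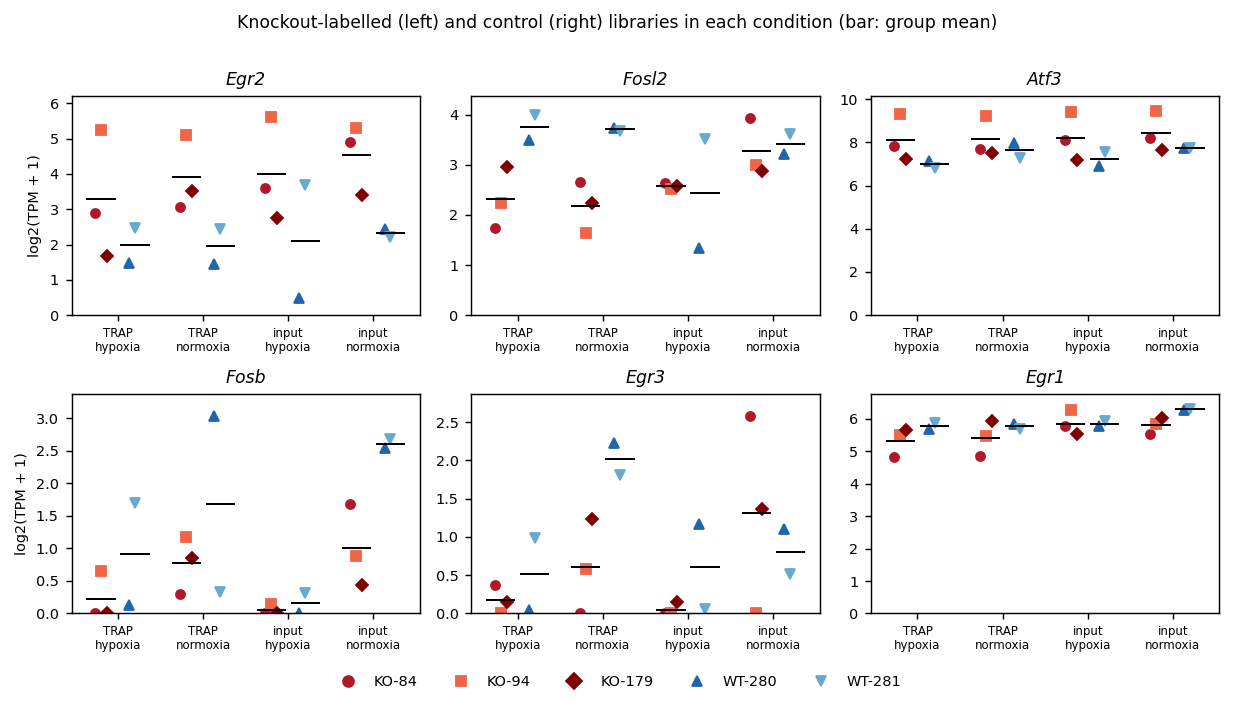
log2(TPM + 1) of 6 members in knockout-labelled libraries (left of each pair) and control libraries (right), with bars at the group means. Fosl2 in TRAP does not overlap between genotypes in either oxygen condition, and Egr2 does not overlap in normoxia.

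Whether hypoxia acted differently by genotype was tested as an interaction, KO hypoxia difference minus WT hypoxia difference. No gene passed in input or in TRAP (0% each), and 261 and 284 genes had an unadjusted limma p under 0.05. In input 8 of 10 members had the less negative or more positive difference in KO animals, with a median of 0.50 against 0.25 over all genes. Fosb averaged -0.96 in KO animals and -2.45 in WT animals, an interaction of 1.49 ± 0.72 (SE, limma adjusted p = 1.000). Fosb did not exceed 0.247 TPM in any hypoxia input library, so this value largely restates its genotype difference of -1.61 in normoxia input. Egr3 averaged -1.27 in KO and -0.20 in WT, an interaction of -1.07 ± 0.95 (SE, adjusted p = 1.000). In TRAP the smallest p-values were those of Egr3, with -0.43 in KO and -1.51 in WT (1.08 ± 0.82, SE), and Atf3, with -0.01 in KO and -0.66 in WT (0.65 ± 0.91, SE, adjusted p = 1.000 for both). Egr3 did not exceed 0.984 TPM in any hypoxia TRAP library, so its interaction there rests largely on its genotype difference of -1.42 in normoxia TRAP.

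Among the listed pathway genes, none passed between genotypes in any condition. Mmp9 had the smallest p of them in both input conditions, with 12.3, 38.0 and 16.5 TPM in normoxia input of KO-84, KO-94 and KO-179 against 2.64 and 2.73 TPM in that of WT-280 and WT-281. Its log2 difference was 2.50 ± 0.63 (SE, limma adjusted p = 1.00) and was 2.17 ± 0.63 in hypoxia input (SE, adjusted p = 0.736). Timp1, the gene of an inhibitor of such proteases, differed by -1.91 ± 0.75 in normoxia input and -1.57 ± 0.75 in hypoxia input (SE, adjusted p = 1.00 and 0.736). Mafg, a small Maf gene, differed by 3.42 ± 0.92 in normoxia TRAP (SE, adjusted p = 0.759), where it was listed at 0 in WT-281. Fosl1, the gene of the Fos-related protein Fra-1, differed by -2.80 ± 0.82 in hypoxia TRAP (SE, adjusted p = 1.00).

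By list, 6 of 12 AP-1 partners averaged lower and 6 higher in KO normoxia input, and 5 lower and 7 higher in KO hypoxia input. Of the 13 feedback genes, 10 averaged lower and 3 higher in KO normoxia input, and 3 lower and 10 higher in KO hypoxia input, where the median of all genes was also above 0. Of the 17 upstream genes, 14 averaged higher and 3 lower in KO in each of these conditions, where 42.8% of all genes averaged lower in normoxia input and 30.3% in hypoxia input. Their median was 0.29 in normoxia input (0.11 over all genes) and 0.36 in hypoxia input, the same as over all genes. Among those higher was Mrtfa in hypoxia (1.53 ± 0.66, SE, limma adjusted p = 0.736). In TRAP the upstream genes split 5 lower to 12 higher in normoxia and 7 lower to 10 higher in hypoxia, and the feedback genes 9 lower to 4 higher and 6 lower to 7 higher.

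The third comparison sets RNA on tagged ribosomes against total RNA of the same lysate. No member passed, while 40 of 14842 genes (0.270%) passed in normoxia and 21 (0.141%) in hypoxia. A replicate block for the animal gave 435 and 57. In the fit without that block, both numbers were 0 when KO-84 was left out. In normoxia 8 of 10 members averaged lower in TRAP (median -0.46, against -0.28 over all genes) and in hypoxia 6 of 10 did (median -0.11, against -0.13). Fos and Egr3 were the members that averaged higher in TRAP in both conditions. In normoxia the log2 difference was 0.20 ± 0.37 for Fos and 0.06 ± 0.42 for Egr3 (SE). In hypoxia it was 0.55 ± 0.37 for Fos and 0.04 ± 0.42 for Egr3 (SE), so that of Egr3 was next to nothing in both.

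Egr1 had the smallest p in normoxia. It measured 27.7, 43.3 and 60.8 TPM in TRAP of KO-84, KO-94 and KO-179 and 56.3 and 51.1 TPM in that of WT-280 and WT-281, against 45.6, 55.9 and 64.7 TPM and 77.1 and 78.6 TPM in input. TRAP was lower in 5 of 5 animals, as for 14.7% of genes tested, and the log2 difference was -0.44 ± 0.29 (SE, adjusted p = 0.631), or -0.29 after quantile normalization. In hypoxia it was -0.35 ± 0.29 (SE, adjusted p = 1.00), with KO-179 higher in TRAP. No member was lower in TRAP in 5 of 5 animals in hypoxia, where 8.18% of genes were.

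Fos in hypoxia measured 364, 699 and 527 TPM in TRAP of the KO animals and 1024 and 575 TPM in that of the WT animals, against 379, 857 and 221 TPM and 378 and 433 TPM in input. TRAP was higher in WT-280 (1.43), KO-179 (1.25) and WT-281 (0.41) and lower in KO-84 (-0.06) and KO-94 (-0.29). The log2 difference averaged 0.55 ± 0.37 (SE, adjusted p = 1.00).

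Fosl2 in normoxia was lower in TRAP in all 3 KO animals (5.28, 2.13 and 3.74 TPM in TRAP against 14.2, 6.98 and 6.35 TPM in input) and higher in both WT animals (12.3 and 11.8 TPM in TRAP against 8.25 and 11.2 TPM in input). This pattern was held by 2.80% of genes tested in normoxia, and in hypoxia by 5.19% of genes and no member. The mitochondrial share in TRAP differed between animals, as given above, and its part in this pattern was not tested. The mean difference of Fosl2 was -0.53 ± 0.45 (SE, limma adjusted p = 0.712), and -0.17 after quantile normalization. The difference between genotypes was tested in a comparison added after the data were seen: it was -1.38 ± 0.93 (SE, limma adjusted p = 1.00), with no gene of 14842 passing (0%) and 376 at an unadjusted p under 0.05. In hypoxia it was -1.59 ± 0.93 (SE, adjusted p = 1.00), again with 0% of genes passing and 441 at an unadjusted p under 0.05, and KO-179 was there higher in TRAP, as the WT animals were. Egr3 in normoxia gave -1.92 ± 0.85 (SE, limma adjusted p = 1.00), a value of -0.99 without KO-84, whose input library held 4.97 TPM and whose TRAP library was listed at 0. In hypoxia the next member after Fosl2 was Jun, with -1.04 ± 1.01 (SE, adjusted p = 1.00).

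**Figure D4:**
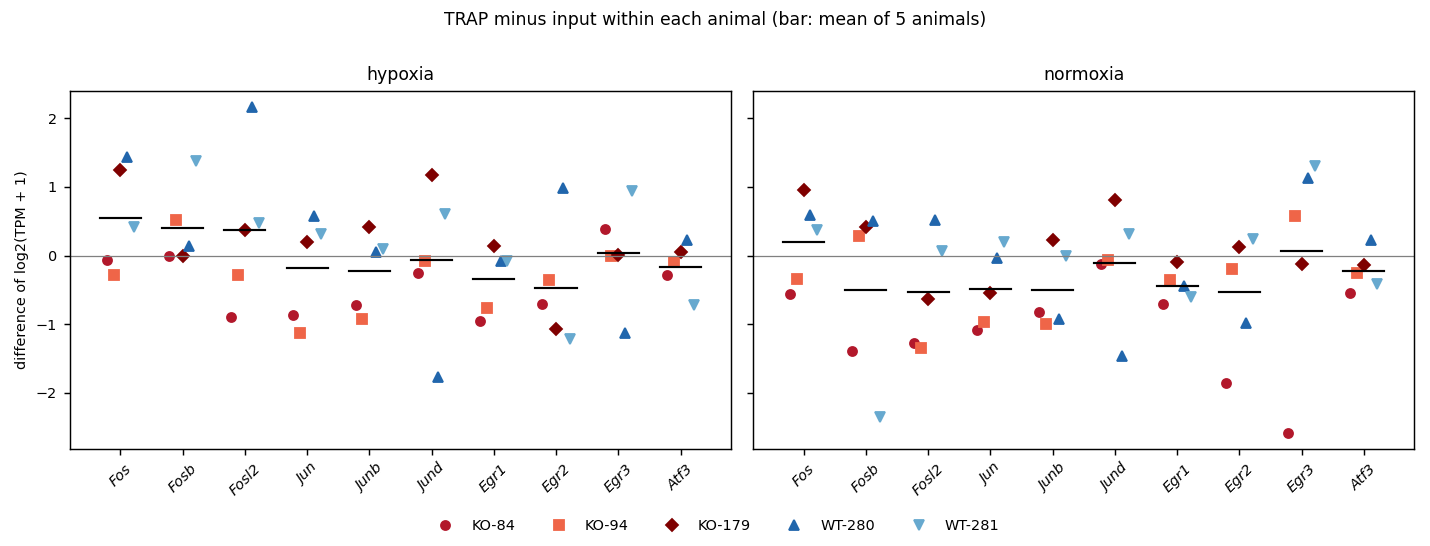
Difference of log2(TPM + 1), TRAP minus input, within each of the 5 animals for the 10 members in hypoxia and in normoxia, with bars at the mean. Egr1 lies below 0 in all 5 animals in normoxia, and Fosl2 in normoxia is above 0 in both WT animals and below 0 in the 3 KO animals.

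A single listed gene passed in this comparison. Timp1 was lower in TRAP than in input in hypoxia, with a log2 difference of -2.67 ± 0.49 (SE, limma adjusted p = 0.0437), and had -2.05 ± 0.49 in normoxia (SE, adjusted p = 0.122). The hypoxia call depended on the settings: of 12 alternatives it passed in 2, a replicate block for the animal (adjusted p = 0.00238) and a fit without KO-94 (-3.17, adjusted p = 0.00603). In the other 10 the adjusted p was 0.0552 to 0.492, the highest being that without KO-84, where the difference was -2.48. The summed fibroblast markers were also lower in TRAP (4.64 to 156 TPM) than in input (84.4 to 575 TPM), and their part in the Timp1 value was not tested. Of the 13 tested target genes, all 13 averaged lower in TRAP in normoxia and 11 in hypoxia. Of the AP-1 partners 10 of 12, of the upstream genes 16 of 17 and of the feedback genes 11 of 13 averaged lower in TRAP in normoxia, where 71.5% of all genes did.

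The genes whose levels followed Fos and Egr1 most closely over the 10 input libraries were found by Pearson's r of log2(TPM + 1). They were taken from 7984 genes with a mean of at least 5 TPM, after clone-like names and pseudogenes were left out. The libraries come in pairs from 5 animals and share any difference of quality between animals, so r is a description. For Fos these were the antiproliferative gene Btg2 (0.95), Zfp36 (0.93), the cyclin gene Ccnl1 (0.93), Dusp5 (0.93) and Osgin2 (0.91). For Egr1 they were Rbpj, the DNA-binding effector of Notch signalling (0.87), Zc2hc1a (0.85), Kri1 (0.84), Plpp5 (0.79) and Tspan13 (0.77). No gene was in both sets of 5, and Zfp36 and Dusp5 of the Fos set were also on the feedback list.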

How the data were processed

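Poly(A) RNA was sequenced from 20 libraries. Per the submitters' processing notes HISAT, DESeq2 and GRCm38 were used, with no versions or roles given. The authors deposited 1 table per fraction with TPM values for 52636 genes, which sum to 1000000 in each library; their computation is not described by the labels. Another 20 columns of per-sample ratios were not used. TPM hold no read numbers, so depth is unknown.

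From these values log2(TPM + 1) was analysed after a filter (2 or more libraries of the fit at 1 TPM or above), which left 13522 genes in TRAP, 13901 in input and 14842 in the joint fit. R 4.3.3 with limma 3.58.1, using a mean-variance trend, was used to fit 1 mean per genotype and oxygen group in each fraction and, for TRAP against input, in a joint fit of all libraries. P-values are two-sided, Benjamini-Hochberg adjusted over all genes of a comparison, and pass under 0.05. Hypoxia and TRAP differences weight the 5 animals equally. The main fits do not pair the libraries of an animal, so the SEs and p-values of these differences include the spread between animals. Cultures within an animal are not described as replicated, so p-values measure the spread between animals and libraries. Python 3.11.15, numpy 2.4.6, pandas 2.3.3 and matplotlib 3.10.9 made tables and plots. The fits were tested on simulated data.

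The members and the gene lists were chosen with earlier results of these data known. Statistics are given for every member in the hypoxia comparisons and otherwise for the 2 members, or 2 genes of a list, with the smallest p. For lists in the comparisons of genotype and of fraction, values are printed for only some of these genes, chosen after they were seen.

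Libraries with the same number come from the same animal and are paired. In input, deviations from the group means in the pair of oxygen conditions correlated across genes. The r was 0.34 for KO-84, 0.76 for KO-94, 0.42 for KO-179 and 0.28 for each control. In TRAP it was 0.41, 0.58, 0.29 and 0.23 in that order. With 2 controls, their deviations mirror each other, so both have the same r by construction and count as a single value. Alternatives were a replicate block for the animal, quantile normalization, the unfiltered table, a pseudocount of 0.1 or 5, a fit with no trend, a fit to the compared groups alone, and leaving out each animal or either of 2 input libraries. The labels give no batch. Promoter windows are RefSeq's for GRCm38.p6.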

Additional observations from a re-analysis of the deposited data

Results flagged for a closer look

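Within each oxygen condition and fraction, the 5 libraries of a member were checked for a highest or lowest value whose gap to its neighbour exceeded Dixon's critical value of 0.71 of the range. Of 40 such groups, 12 held one. The rule's nominal rate of about 5% is for independent, normally distributed values. The values checked were TPM on a linear scale, so that rate does not measure chance here. The 5 libraries pool both genotypes, and members in a library are not independent.

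KO-94 supplied 9 of them. Atf3 in KO-94 stood at 627 TPM in hypoxia TRAP, 586 TPM in normoxia TRAP, 666 TPM in hypoxia input and 699.6 TPM in normoxia input. Egr2 in KO-94 stood at 37.3 TPM in hypoxia TRAP, 33.6 TPM in normoxia TRAP and 47.9 TPM in hypoxia input. In hypoxia input of KO-94, Junb was at 351 TPM and Jund at 363 TPM.

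The other 3 were in control libraries: Fosb at 2.25 TPM in hypoxia TRAP of WT-281, Fosb at 7.19 TPM in normoxia TRAP of WT-280 and Egr3 at 1.24 TPM in hypoxia input of WT-280.

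Fosl2 in normoxia was lower in TRAP than in input in every KO animal and higher in every WT animal. The difference of these differences, KO minus WT, was -1.38, and the test of it did not pass (limma adjusted p = 1.00).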

How the results depend on the processing

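Of 42 member values with a test, recomputed to give 502 values under alternatives, 497 of these kept their direction and their side of the threshold, 5 reversed and 0 newly passed. The reversals were Egr2 in hypoxia input (0.21 without the WT-280 hypoxia input library) and, for hypoxia in TRAP, Egr1 (0.00) and Egr2 (0.01) without KO-179 and Fosl2 without KO-94 (-0.03) and KO-179 (-0.06). Leaving out an animal or library, these values spanned -0.90 to 0.21, -0.11 to 0.00, -0.49 to 0.01 and -0.06 to 0.35. The cause was not tested.

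With the animal as a replicate block, the adjusted p for hypoxia was 0.577 to 0.810 in input and 0.832 to 0.988 in TRAP for the members, and no member passed in any comparison. For genotype within 1 oxygen condition, no paired analysis was possible because the groups share no animal.

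Numbers of genes passing moved more. With the block, TRAP against input gave 435 genes in normoxia (40 without it) and 57 in hypoxia (21 without it), and the genotype difference of TRAP against input in hypoxia gave 1. Quantile normalization gave 12, 4 and 2 for these 3. Without the filter, the counts were 1 for genotype in normoxia input and in hypoxia input, 2 in normoxia TRAP, 10 in hypoxia TRAP, 12 for TRAP against input in hypoxia, 7 for the difference of hypoxia changes between fractions, and 10 in normoxia and 18 in hypoxia for the genotype difference of TRAP against input. A pseudocount of 5 gave 1 for genotype in normoxia TRAP and in hypoxia TRAP, 7 for TRAP against input in hypoxia and 4 for its genotype difference. A pseudocount of 0.1 gave 1 for the interaction in TRAP and 2 for TRAP against input in hypoxia, where dropping the trend gave 7. Only the groups compared gave 1 for genotype in hypoxia input.

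Leaving out an animal or a single library gave 0 to 1 for hypoxia in input (1 without KO-94), 0 to 2 for genotype in normoxia input, 0 to 1 in normoxia TRAP, 0 to 2 in hypoxia TRAP, 0 to 25 for TRAP against input in normoxia, 0 to 21 in hypoxia and 0 to 1 for its genotype difference in hypoxia. Both counts of TRAP against input were 0 without KO-84, and that in normoxia was 19 without its normoxia input library. A fit without a control animal leaves single WT libraries, whose spread is then taken from the other groups. With unknown depth, values under 1 TPM, as in most libraries for Fosb and Egr3, have no counting error that can be estimated here.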
